A study of Mus musculus with 3 samples.

Results

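The Hox gene clusters were examined for binding of NR2F2, also called COUP-TFII, in the fetal mouse testis. A peak, a 300 bp interval enriched in the chromatin immunoprecipitation (ChIP) reads, was counted as a Hox peak when its nearer edge lay within 50 kb of a curated RefSeq transcription start site (TSS, GRCm38, the assembly also called mm10) of any of the 39 protein-coding Hoxa, Hoxb, Hoxc and Hoxd genes. This rule found 10 of the 10069 peaks, and no cluster was without one. The Hoxa cluster had 1 peak, Hoxb had 1, Hoxc had 3 and Hoxd had 5.

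Testes of CD-1 embryos at E14.5 (embryonic stage), freed of the mesonephros, were used for 2 independent NR2F2 ChIP experiments on chromatin from 30 pooled testes. The study calls the replicates biological. The edgeR p-values rest on counting error and on a spread between these samples that is largely shared over all peaks. They do not measure the spread at each peak alone. A single input library, sheared chromatin without immunoprecipitation, served as the background. The tissue was whole testis, so a peak bound strongly in few cells and one bound weakly in many cannot be told apart, and counts at peaks hold no expression by which the tissue label could be checked. The study asked near which genes NR2F2 binds while interstitial cells, the cells between the testis cords, either stay progenitors or become androgen-producing Leydig cells.

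Hox genes encode homeodomain transcription factors that give cells their position along the body axis. They lie in 4 clusters that arose by duplication, so that each gene belongs to a paralogue group, numbered from 1 to 13, with related members in the other clusters. Their order along the chromosome follows the order in which they are expressed along the axis, and the high-numbered genes of the Hoxa and Hoxd clusters are known for their part in the urogenital tract. Polycomb proteins keep the clusters silent and Trithorax proteins keep them active. NR2F2 binds as a dimer to pairs of the half-site AGGTCA or GGGTCA.

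The peaks were numbered within each cluster along the chromosome. Half-sites were found in 5 of the 10 peaks, and sequence of 4 of these is shown, so that the half-sites can be seen in place. Capitals mark AGGTCA or GGGTCA, or their reverse complements TGACCT or TGACCC, and all lines run 5′ to 3′ on the plus strand of mm10. Hoxb peak 1 (chr11:96234849-96235148) had the lowest summed ChIP count of the 10, while Hoxd peak 1 (chr2:74672906-74673205) and Hoxd peak 4 (chr2:74753371-74753670) had 2 half-sites each. Of Hoxa peak 1 (chr6:52221673-52221972) 26 bases around its half-site are given (chr6:52221870-52221895).
Hoxb peak 1: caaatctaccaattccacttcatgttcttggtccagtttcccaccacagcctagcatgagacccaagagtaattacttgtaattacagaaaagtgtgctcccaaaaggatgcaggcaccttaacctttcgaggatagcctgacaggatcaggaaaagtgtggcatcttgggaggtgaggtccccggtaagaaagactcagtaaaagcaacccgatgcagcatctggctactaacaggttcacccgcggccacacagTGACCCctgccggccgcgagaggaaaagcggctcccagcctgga
Hoxd peak 1: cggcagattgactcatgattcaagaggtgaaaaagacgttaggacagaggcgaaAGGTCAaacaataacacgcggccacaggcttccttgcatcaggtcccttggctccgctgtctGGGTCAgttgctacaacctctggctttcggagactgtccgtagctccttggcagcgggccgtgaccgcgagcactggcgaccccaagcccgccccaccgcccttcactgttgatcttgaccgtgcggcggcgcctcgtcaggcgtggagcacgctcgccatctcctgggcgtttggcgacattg
Hoxd peak 4: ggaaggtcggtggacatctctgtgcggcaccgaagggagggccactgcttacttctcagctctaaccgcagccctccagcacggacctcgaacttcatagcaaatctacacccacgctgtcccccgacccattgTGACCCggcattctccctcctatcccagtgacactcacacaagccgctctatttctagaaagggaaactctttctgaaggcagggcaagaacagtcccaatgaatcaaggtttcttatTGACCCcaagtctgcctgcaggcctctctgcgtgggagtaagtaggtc
Hoxa peak 1: gcaacgcctgTGACCCcaccagcgtt

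The first question was where NR2F2 bound within the clusters. By their midpoints all 10 peaks lay between the outermost Hox TSSs of their cluster, and none lay in the flanking 50 kb on either side. Hoxd peak 5 covered the outermost TSS, that of Hoxd1, and reached into the flank. The spans between the outermost TSSs came to 482.1 kb in all and the flanks to a further 400 kb. The density over spans and flanks together was 11.3 peaks per Mb, against 7.24 per Mb within 50 kb of the TSSs of all 21000 protein-coding genes. By cluster it was 25.7 per Mb in Hoxd, 14.1 in Hoxc, 4.94 in Hoxa and 3.68 in Hoxb. Peaks were thus most closely spaced in Hoxd and most sparse in Hoxb, the longest of the clusters. With 1 peak list called on the merged replicates, these densities have no replicate error and were given no test.

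**Figure D1:**
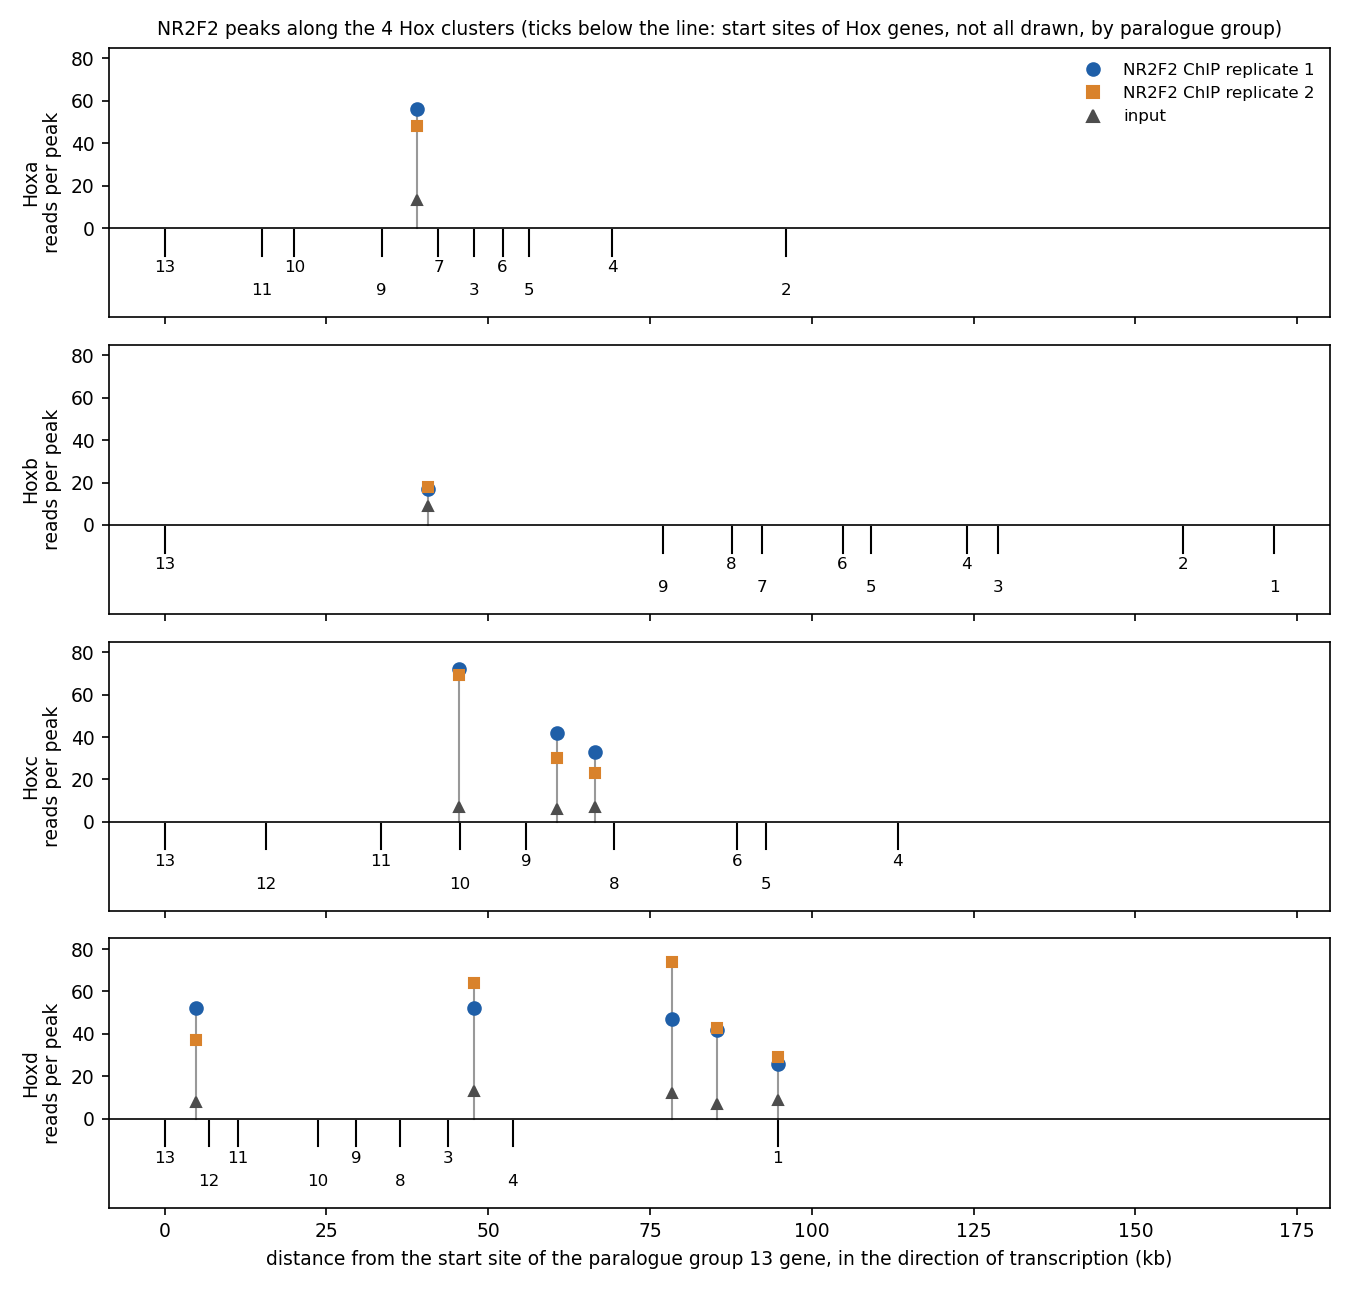
Reads per 300 bp peak in the 3 libraries (vertical axis) against the distance in kb from the TSS of the paralogue group 13 gene, in the direction of transcription. Ticks below each line are TSSs of Hox genes, not all of which are drawn, numbered by paralogue group (the most upstream one where a gene has 2), and the midpoints of the 10 peaks sit between the outermost TSSs, with 5 of them in Hoxd and 1 each in Hoxa and Hoxb.

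Of the 39 Hox genes, 30 had a peak within 50 kb of a TSS (76.9%), against 56.1% of all protein-coding genes. At shorter range the order turned. Within 10 kb a peak was found for 12 Hox genes (30.8%) against 34.3% of all genes, and within 1 kb for 2 Hox genes (5.13%) against 28.1%. Neighbouring Hox genes share peaks, so these shares are not counts of independent genes and were given no test. The 2 genes with a peak within 1 kb were Hoxc10 and Hoxd1. This count depends on the annotation. With all start sites of GENCODE M21, which lists more transcripts, it was 5 (12.8%, against 28.5% of all protein-coding genes). Added were Hoxa7, Hoxd3 and Hoxc5. The added Hoxc5 start lies by Hoxc peak 1, the same peak as for Hoxc10, and the curated Hoxc5 TSS was 26181 bp from its nearest peak.

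All 9 Hoxc and all 9 Hoxd genes had a peak within 50 kb, as had 9 of 11 Hoxa genes and 3 of 10 Hoxb genes. The Hoxb genes without one were Hoxb1 to Hoxb7, between 51498 bp (Hoxb7) and 130610 bp (Hoxb1) from Hoxb peak 1. They are all the genes of that cluster but the 3 of highest number. The median distance from a gene to its nearest peak was 5812 bp in Hoxd, 17086 bp in Hoxa, 21735 bp in Hoxc and 66145 bp in Hoxb.

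Of the peaks beyond the 50 kb threshold, the nearest lay 51776 bp downstream of the Hoxc4 TSS (chr15:103086171-103086470), with 33 and 27 ChIP counts and 11 input counts. Just inside were Hoxc4, 46568 bp from Hoxc peak 3, and Hoxb8, 46757 bp from Hoxb peak 1. No Hox peak was farther than 36182 bp (Hoxb peak 1) from its nearest Hox TSS. The next peaks beyond the Hoxd cluster lay at the promoters of its neighbours, 224 bp from the TSS of Mtx2 and 63056 bp from Hoxd1, and over the TSS of Lnpk, 89007 bp from Hoxd13.

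Counts at the peaks were examined next, first in all 3 libraries and then relative to other peaks. The libraries held 73251 counts (input), 426784 (ChIP replicate 1) and 364261 (ChIP replicate 2) over all peaks, and these are totals at peaks, not sequencing depths. At the Hox peaks the input ranged from 6 to 13 counts, ChIP replicate 1 from 17 to 72 and ChIP replicate 2 from 18 to 74. Each of the 10 peaks had more reads in either ChIP library than in the input. Peaks had been selected for a high ChIP count, so this is not independent evidence of binding.

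In the Hoxc cluster, the peak with the most ChIP reads lay at the promoter of Hoxc10, a gene of the posterior trunk and hindlimb. Hoxc peak 1 (chr15:102966429-102966728) ended 68 bp upstream of the TSS of Hoxc10 (gene identifier 209448), outside any annotated gene. It had 7 input counts, 72 counts in ChIP replicate 1 and 69 in ChIP replicate 2. Its ChIP to input ratio (raw counts, 0.5 added to each) was 9.47 ± 0.283 (SD, n = 2), the highest of the Hox peaks in both replicates. Among all peaks its summed ChIP count stood at the 92.5th percentile and its ratio at the 88.8th. Its only half-site lay 47 bp from the centre of the peak.

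The other Hoxc peaks were weaker. Hoxc peak 2 (chr15:102981674-102981973) lay wholly in a coding exon of Hoxc9 (15427), 4642 bp downstream of its TSS, and had 6 input, 42 and 30 ChIP counts. Hoxc peak 3 (chr15:102987528-102987827) lay 2712 bp upstream of the TSS of Hoxc8 (15426), between Hoxc9 and Hoxc8 and outside any curated gene, and had 7 input, 33 and 23 ChIP counts. Neither held a half-site. Their ratios were 5.62 ± 1.31 and 3.80 ± 0.943 (SD, n = 2), both below Hoxc peak 1 in both replicates. The values of Hoxc peak 2 (6.54 and 4.69) also lay above those of Hoxc peak 3 (4.47 and 3.13) and did not overlap them, on 6 and 7 input counts.

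The Hoxd cluster held peaks at both ends and in its middle. Hoxd peak 1 lay between the genes of digit and external genital development, 4681 bp downstream of the TSS of Hoxd13 (15433) and 1808 bp upstream of that of Hoxd12 (15432), outside any gene. It had 8 input, 52 and 37 ChIP counts. Its half-sites were both on the plus strand, 93 and 31 bp from the centre of the peak.

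Hoxd peak 2 (chr2:74715867-74716166) covered the TSS of Hoxd3os1 (73429), a long non-coding RNA antisense to Hoxd3, inside an intron of Hoxd3 (15434) and 3874 bp downstream of its TSS. It had 13 input, 52 and 64 ChIP counts. Hoxd peak 3 (chr2:74746453-74746752) lay wholly in a coding exon of the same gene and had 12 input, 47 and 74 ChIP counts. In GENCODE M21 a start site of Hoxd3 lies 731 bp from it. By the curated transcripts Hoxd3 was the only Hox gene with more than 1 peak inside it, and neither of the 2 peaks held a half-site.

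Hoxd peak 4 lay in an exon of the non-coding Gm14424 (102634401) and in an intron of Haglr (102634678), a long non-coding RNA transcribed away from Hoxd1. It lay 9310 bp upstream of the TSS of Hoxd1 (15429) and had 7 input, 42 and 43 ChIP counts. Hoxd peak 5 (chr2:74762828-74763127) covered the paired TSSs of Hoxd1 and Haglr, with 122 bases of the 5' UTR and 26 coding bases of Hoxd1 inside it. It had 9 input, 26 and 29 ChIP counts. Of the 5 Hoxd peaks this promoter peak had the lowest count in both ChIP libraries, and the others did not keep 1 order across the replicates.

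In the Hoxa cluster the only peak lay between Hoxa9 and Hoxa7, 3100 bp upstream of the curated TSS of Hoxa7 (15404) and 5398 bp downstream of that of Hoxa9 (15405). GENCODE M21 places the TSS of a longer Hoxa7 transcript inside it. Hoxa peak 1 had 13 input, 56 and 48 ChIP counts, a ratio of 3.89 ± 0.419 (SD, n = 2). Its summed ChIP count stood at the 80.5th percentile of all peaks and its ratio at the 32.2nd, with an input count at the 94.1st.

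In the Hoxb cluster the only peak lay in the long interval that sets Hoxb13 apart from the rest, 40533 bp downstream of the TSS of Hoxb13 (15408) and 36182 bp upstream of that of Hoxb9 (15417). The peak itself overlapped no annotated gene. Hoxb peak 1 had 9 input, 17 and 18 ChIP counts, and its ratio of 1.89 ± 0.0744 (SD, n = 2) was the lowest of the Hox peaks in both replicates. Among all peaks the summed count stood at the 7.18th percentile and the ratio at the 0.953th. The Hoxb cluster thus had the fewest peaks for its length and the weakest one.

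The enrichment was then tested in fits over all 10069 peaks. Under the assumption of equal depth in the 3 libraries, 9 of 10 Hox peaks were called above input by the quasi-likelihood test (edgeR adjusted p under 0.05), where 80.7% of all peaks were called. The exception was Hoxb peak 1, with a log2 ratio of 0.95 ± 0.26 (SE) and an edgeR adjusted p of 0.0665. At Hoxc peak 1 the log2 ratio was 3.31 ± 0.30 (edgeR adjusted p = 0.0311), and at the other 8 it lay between 1.60 (Hoxd peak 5) and 2.58 (Hoxd peak 4). The share called among the Hox peaks is near that of all peaks. Were the ChIP libraries in fact 2 times deeper, edgeR would call 0 of the 10 and 0 of all 10069 peaks, with 2 Hox peaks and 3928 of all peaks at an unadjusted p under 0.05. DESeq2 at equal depth called 7 of the 10 (59.6% of all peaks). The sequencing depths are unknown, so the call against input rests on that assumption. It also uses the ChIP reads on which the peaks were called, so it adds no independent evidence of binding.

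Next, each peak was set against the typical peak, a contrast free of that assumption. After scaling by TMM factors, edgeR called 0 of 10 Hox peaks higher and 0 lower than typical in the ratio of ChIP to input. Of all peaks 1.53% were called above and 0.0497% below. At an unadjusted p under 0.05, 0 Hox peaks were above (7.89% of all peaks) and 1 was below (2.55%), and DESeq2 also called 0 but gave none of the 10 an adjusted p. The median log2 ratio of the Hox peaks was -0.06, against 0.02 for all peaks. The lowest was -1.35 ± 0.64 (SE) at Hoxb peak 1 (edgeR adjusted p = 0.419), the peak below at the unadjusted threshold. The highest was 1.01 ± 0.53 at Hoxc peak 1 (edgeR adjusted p = 0.496). At the other 8 peaks the log2 ratio lay between -0.70 (Hoxd peak 5) and 0.29 (Hoxd peak 4), and each of these values but that of Hoxd peak 5 was smaller than its SE.

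**Figure D2:**
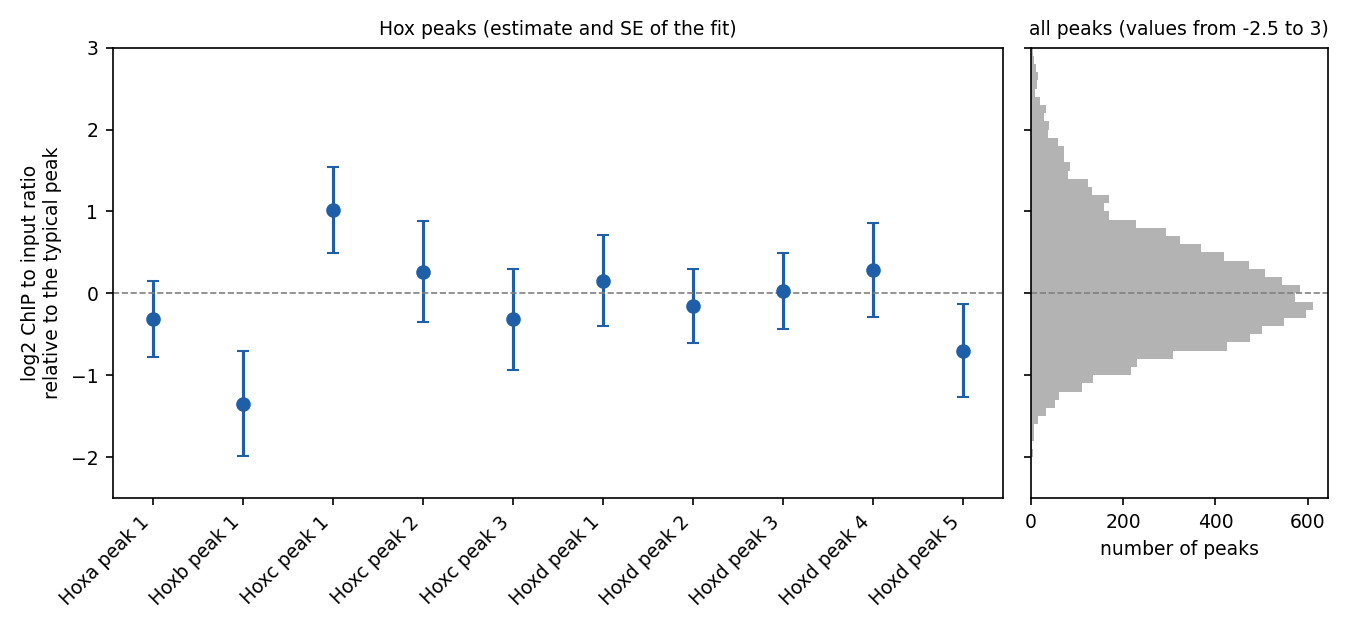
Log2 ChIP to input ratio relative to the typical peak (vertical axis), as the estimate and SE of the edgeR fit for each Hox peak (left) and as a histogram over all peaks (right). The histogram leaves out peaks above the top of the axis, and the highest value of all peaks is 10.1. Hoxc peak 1 at 1.01 and Hoxb peak 1 at -1.35 are the highest and lowest of the 10, and 8 lie between -0.70 and 0.29.

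In raw counts the median ratio of the Hox peaks was 4.33 in the first ChIP replicate, 4.55 in the second and 4.44 ± 0.160 (SD, n = 2) on average. Over all peaks it was 5.11 in the first and 4.39 in the second, so the Hox peaks were lower than all peaks in one replicate and higher in the other. These raw ratios move with the size of each library. By summed ChIP count 7 of the 10 Hox peaks were above the median of all peaks. Their input counts were also higher, with a median of 8.5 against 7. The part of the input in the ChIP counts was not tested.

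The replicates were compared at each Hox peak. An exact two-sided binomial test against the share of the totals called 0 of 10 Hox peaks after adjustment over all peaks, where 0.0993% of all peaks were called. The test treats reads as independent and covers counting error only. At an unadjusted p under 0.05, 1 Hox peak passed, where 8.83% of all peaks did. This was Hoxd peak 3, with 47 counts in replicate 1 and 74 in replicate 2 (exact binomial p = 0.000967, adjusted p = 0.174). Relative to the totals, 7 of the 10 were higher in replicate 2, among them 4 of the 5 Hoxd peaks, where 5010 of the 10069 peaks were.

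**Figure D3:**
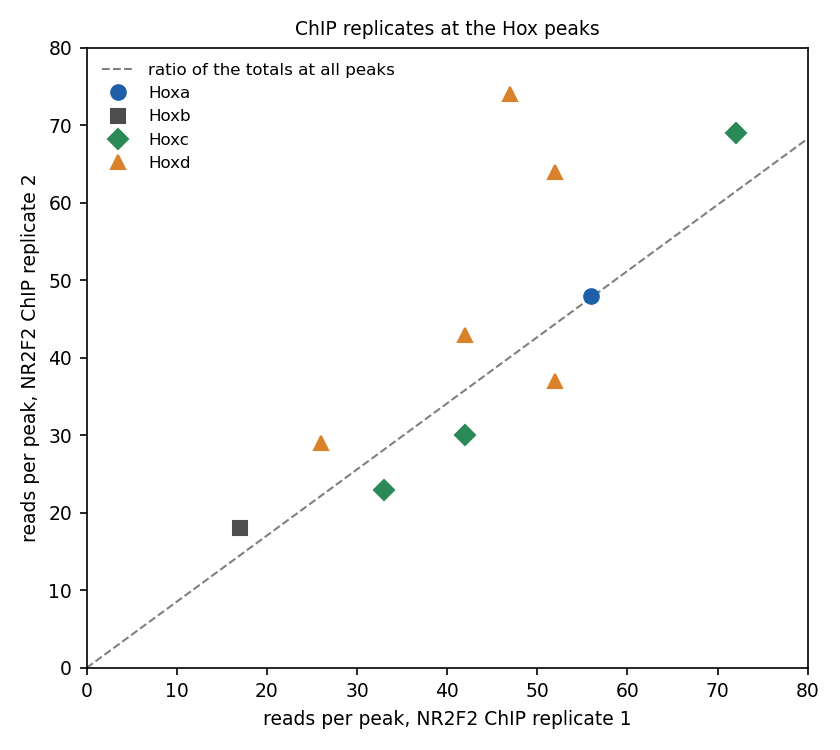
Reads per peak in NR2F2 ChIP replicate 1 (horizontal axis) and replicate 2 (vertical axis) at the 10 Hox peaks, with a dashed line at the ratio of the totals over all peaks. Hoxd peak 3, at 47 and 74 reads, lies farthest above the line.

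Part of the sequence of Hoxd peak 3 had similar but not identical copies elsewhere. It covers part of the homeobox of Hoxd3, the stretch that encodes the DNA-binding homeodomain and has a counterpart in every Hox gene. Among the 10 Hox peaks it was the only one with a blastn match elsewhere in the cluster windows. Its first 98 bases matched Hoxb3 at 93.9% identity and its first 128 bases matched Hoxa3 at 87.5%, and both are members of the same paralogue group. No peak was called at these matches. Reads had been filtered on mapping quality before counting, and whether any were placed between such copies was not tested.

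Shared sequence features were limited. The half-site AGGTCA or GGGTCA, on either strand, was present in 5 of 10 Hox peaks and in 58.9% of all peaks on chromosomes. The extended site AGAGGTCA or AGGGGTCA, which contains the half-site, was present in 1 of 10, Hoxb peak 1, and in 10.5% of all peaks. There it lay 110 bp from the centre of the peak with the fewest ChIP counts. A direct repeat of AGGTCA with 1 base between the copies was absent without mismatch (1.24% of all peaks), and with up to 2 mismatches it was present in 2 Hox peaks, Hoxd peaks 1 and 5, and in 11.9% of all peaks. The 2 inexact repeats are shown with the repeat in capitals, at chr2:74672947-74672971 (plus strand of mm10) and chr2:74763097-74763121 (minus strand).
Hoxd peak 1 repeat: ggacagAGGCGAAAGGTCAaacaat
Hoxd peak 5 repeat: tactccAGGTAAGAGCTCAtggctc

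Sites of the Hox proteins themselves and of their partners were found in 1 Hox peak each. TGATTNAT, bound by Hox with Pbx proteins, was present in Hoxd peak 4 only, at 1.69% of all peaks, and TGACAG, bound by Meis and Pknox proteins, in Hoxb peak 1 only, at 17.7% of all peaks. A match is a run of letters and was not tested as a site. GC content had a median of 60.7% in the Hox peaks, from 52.0% in Hoxb peak 1 to 69.3% in Hoxd peak 5, and the same median of 60.7% in all peaks. The ratio of observed to expected CpG was 0.723 (median) against 0.640, and highest, at 1.08, in the coding exon of Hoxc9.

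By the midpoint of the peak and curated RefSeq genes, 6 of 10 Hox peaks lay outside any gene (39.4% of all peaks), 2 in a coding exon (10.3%), 2 in an untranslated or non-coding exon (17.1%) and 0 in an intron only (33.3%). GENCODE M21 has transcripts of Hoxa7 over Hoxa peak 1 and of Hoxc5 over Hoxc peak 3, both outside any gene here. Each of these counts is of 10 peaks or fewer and was given no test.

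Peaks near the regulators and partners of Hox genes were counted in a fixed list of 24 genes. Of these 19 had a peak within 50 kb (79.2%, against 56.1% of all protein-coding genes). They were all 9 TALE genes, whose products bind DNA together with Hox proteins (among them Pbx2 to Pbx4, Meis1 to Meis3, Pknox1 and Pknox2), 8 of 9 Polycomb genes, the Trithorax gene Kmt2a and Evx2, the neighbour of Hoxd13. None of the 3 caudal genes Cdx1, Cdx2 and Cdx4, which activate Hox genes in the embryo, had one, nor had Cbx2 or Evx1, the neighbour of Hoxa13. The nearest peak lay within 1 kb of the TSS at 7 of the 24, among them Meis3, Ezh2, Eed, Suz12, Pcgf2 and Rnf2. That share, 29.2%, is near the 28.1% of all protein-coding genes. By class it was 5 of 9 Polycomb genes (55.6%), 2 of 9 TALE genes (22.2%) and none of the rest, and the difference was not tested. At 9 of the 24 the listed gene was itself the nearest gene of that peak, and elsewhere the TSS of another gene was closer.

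Of the nearest peaks of the 24 genes, edgeR called 1 above the typical peak, where 1.53% of all peaks were called. It lay 11925 bp from the TSS of Pbx2 (18515, chr17:34604184-34604483) and 623 bp from that of Rnf5, with 10 input, 173 and 134 ChIP counts and a log2 ratio of 1.62 ± 0.38 (SE, edgeR adjusted p = 0.00394). Among the 5 Polycomb genes with a peak within 1 kb, Pcgf2 (22658) had 6 input, 81 and 74 ChIP counts, Suz12 (52615) had 5, 57 and 50, and Eed (13626) had 4, 35 and 24. Ezh2 (14056) had 9 input, 34 and 25 ChIP counts, and Rnf2 (19821) had 1, 25 and 26. None of these 5 was called against the typical peak, and the smallest edgeR adjusted p was 0.242, at Pcgf2, with a log2 ratio of 1.37 ± 0.54 (SE). Evx2 was reached only by Hoxd peak 1, at 13349 bp.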

How the data were processed

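NR2F2 ChIP-seq of whole E14.5 testes comprised 2 ChIP libraries and 1 input, grouped by their titles. The authors deposited raw counts of reads at 300 bp peaks in mm10. Per the study's methods and processing notes, single-end reads were trimmed (Trim Galore 0.6.7), mapped with Bowtie 2, filtered on mapping quality and freed of duplicates (Picard 1.110), and peaks were called with HOMER 4.11.1 on merged ChIP reads and cleared of blacklisted regions. The rule that assigned reads to peaks was not given in the sources used here. Duplicate removal can cap the counts of short intervals, and CD-1 reads were mapped to a C57BL/6J reference.

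Start sites came from curated RefSeq transcripts (45756 of 26180 genes). All fits ran over 10069 peaks with edgeR 4.0.16 (glmQLFit, glmQLFTest; limma 3.58.1, R 4.3.3), with Benjamini-Hochberg adjusted p under 0.05 over all peaks. One took the libraries as equally deep, the other used TMM factors. SEs came from the log2 ratio and the F statistic. The single input was assumed to vary like the ChIP replicates, and its low counts limit every ratio. The fits were also run on simulated counts, with an outcome not reported here. Alternatives included DESeq2 1.42.0. Similarity was searched with blastn 2.17.0 (E-value 1e-05), and other statistics used scipy 1.17.1, numpy 2.4.6 and pandas 2.3.3 under Python 3.11.15. The Hox peaks, gene list and motifs were chosen with earlier results of these data known. The rule for naming peaks (3 strongest per cluster, those within 1 kb of a Hox TSS, those called against the typical peak, those not called above input, the largest replicate difference) left out Hoxd peak 4, which is named so that all 10 are. Some items are not reported here.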

Additional observations from a re-analysis of the deposited data

How the results depend on the processing

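The number of Hox peaks (10) was 8 with a window of 10 kb, 13 with 100 kb, and 10 by the midpoint of the peak and with GENCODE M21 start sites, the last chosen after seeing the data. It fell to 4 when a Hox gene had to be the nearest gene of any kind and to 5 with ties counted (Hoxd peak 5 covers the TSSs of both Hoxd1 and Haglr), the latter chosen after seeing the data. Non-coding genes lie closer to the other 5. The 30 Hox genes with a peak became 12 at 10 kb and 37 at 100 kb, and the 2 with a peak within 1 kb became 5 with GENCODE M21 start sites, also chosen after seeing the data. Hox peaks above input at equal depth fell from 9 to 0 with the ChIP libraries 2 times deeper and to 3 with at least 10 input counts, where 3 were tested, and over all peaks 8122 of 10069 became 0 (3928 at an unadjusted p under 0.05) and 2149 of the 2427 tested. All 10 were called with the ChIP libraries 2 times shallower (97.9% of all peaks) and 9 with robust fitting (97.5%). DESeq2 called 7 of the 10 (59.6% of all peaks), without Hoxb peak 1, Hoxc peak 3 and Hoxd peak 5, and the cause was not tested. All peaks called above or below the typical peak numbered 159 of 10069, 39 with DESeq2 size factors, 22 with DESeq2, which gave 699 peaks an adjusted p, and 62 of the 2427 with at least 10 input counts. With DESeq2 size factors 0 of 10 Hox peaks were called (1 at an unadjusted p under 0.05). DESeq2 gave no Hox peak an adjusted p, and 3 Hox peaks had 10 input counts, so these settings say little of them. The median ratio of the Hox peaks, 4.44, was 3.24 with 5 added to each count, 4.66 with a Hox gene nearest and 4.33 to 4.55 with 1 ChIP replicate left out. No test could be run with 1 ChIP library left out, since no residual degrees of freedom remain. No paired analysis was possible because the label of the input carries no replicate number and there is only 1 input.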

Other observations

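The Hox clusters also hold microRNA genes, which act on Hox transcripts among others. Mir196a-2 in Hoxc lay 6622 bp from Hoxc peak 1, Mir196b in Hoxa 8193 bp from Hoxa peak 1 and Mir10b in Hoxd 9904 bp from Hoxd peak 2. Farther away were Mir615 in Hoxc (27083 bp), Mir196a-1 in Hoxb (30016 bp) and Mir10a in Hoxb (82017 bp). The 2 in Hoxb were thus the farthest from a peak. Among long non-coding genes, a peak covered the TSS of Hoxd3os1 and of Haglr, 611 bp separated Hoxc peak 2 from the TSS of Gm36878, and Hotair, which lies between Hoxc12 and Hoxc11, was 18483 bp from Hoxc peak 1. Hottip, beyond Hoxa13, was 40803 bp from Hoxa peak 1. These distances have no replicate error.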
